A study of Mus musculus with 12 samples.

Results

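The genes described here are 9 transcripts that mark the origin and maturation of cortical interneurons, taken by name from the 55357 genes counted in mouse cortex: Lhx6, Nxph1, Maf, Sox6, Satb1 and Pvalb of the medial lineage, and Adarb2, Prox1 and Npas1 of the caudal lineage. Each was found once in the count tables of the 12 libraries. The libraries came from 6 mice at postnatal day 5, 3 control and 3 with Egfr, the epidermal growth factor receptor, deleted in the brain (cKO). The cortex with the hippocampal formation of every animal had been cut in 2, and the rostral and caudal pieces gave 4 groups of 3 libraries: control rostral and caudal (animals T4, T8 and T70) and cKO rostral and caudal (T3, T6 and T80). The cKO animals are named Nestin-EgfrF/F in the series and NcreEGFRFF in the genotype field, a floxed Egfr allele on both chromosomes with the recombinase under the Nestin promoter. The controls are named EgfrF/+ in the series and WT in the genotype field, and no source used here says whether they carry the recombinase, so loss of Egfr and presence of the recombinase cannot be told apart. Nestin is active in neural progenitors, and the neurons, astrocytes and oligodendrocytes made from recombined progenitors inherit the deletion, while microglia have another origin.

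Cortical interneurons are the inhibitory neurons of the cortex, which release GABA and are born outside it, in the ganglionic eminences of the ventral forebrain, from where they migrate into the cortex and hippocampus before birth. The medial eminence gives the cells that later make parvalbumin or somatostatin, under the transcription factors Nkx2-1, Lhx6, Sox6 and Satb1. The caudal eminence gives cells that make vasoactive intestinal peptide, reelin or calretinin and keep Prox1 and Adarb2. Several of these genes also have a place outside interneurons: Prox1 in granule neurons of the dentate gyrus, Sox6 in oligodendrocyte precursors, Maf in microglia and macrophages, Satb1 in excitatory cortical neurons and Npas1 in neurons of the pallidum. The libraries are of whole tissue, so fewer cells of a type and less RNA per cell cannot be told apart.

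Egfr itself was at 39.3 to 49.0 CPM (counts scaled to a common library size, with TMM factors) in the 6 control libraries and at 5.73 to 14.7 CPM in the 6 cKO libraries, and the groups did not overlap. Total counts ran from 43810241 to 87170063 per library. Some cKO libraries stood apart. On a score over 2488 genes that differed between the control pieces, scaled so that control rostral libraries average 0 and control caudal ones 1, the cKO library labelled rostral of T3 lay at 0.853 and its library labelled caudal at 0.556, against the order of their labels. The cKO rostral libraries of T80 and T6 lay at 0.639 and -0.0801, and the caudal ones at 0.811 and 1.14. The cKO rostral library of T6 had 8.18% of its counts on mitochondrial genes, where the other 11 libraries had 1.85% to 3.98%. Summed choroid plexus markers ran from 2.86 to 558 CPM, with 399 CPM in the rostral and 227 CPM in the caudal library of T3, meningeal markers from 32.5 CPM in the cKO rostral library of T6 to 825 CPM, and thalamic markers from 157 to 228 CPM. No marker of these 3 tissues passed between genotypes. For many results on cKO libraries the values without T3 or without T6 are given as well. The sum of both pieces of an animal does not depend on which piece was labelled rostral, but it weights each piece by its counts, 72127917 rostral and 43810241 caudal in T3 and 54680589 and 82056738 in T4, and so can still depend on where the tissue was divided.

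The interneuron genes were present at very different levels. Per kilobase of annotated exon, control rostral cortex held 13.3 ± 2.18 CPM per kb of Satb1 (SD, n = 3), 8.20 ± 0.0741 of Nxph1, 7.37 ± 0.0399 of Lhx6, 6.00 ± 0.704 of Maf, 4.26 ± 0.447 of Npas1, 3.48 ± 0.165 of Sox6, 1.83 ± 0.267 of Prox1 and 0.950 ± 0.0173 of Adarb2. No neighbours in this order overlapped between control rostral libraries. In control caudal cortex the order of levels per kilobase was Satb1, Nxph1, Lhx6, Maf, Prox1, Npas1, Sox6 and Adarb2, with Satb1 and Nxph1, Nxph1 and Lhx6, and Npas1 and Sox6 overlapping. Prox1 thus stood between Maf at 7.27 ± 0.313 and Npas1 at 3.45 ± 0.235 CPM per kb in caudal cortex, at 4.89 ± 0.917, and below Sox6 in rostral cortex. In cKO caudal cortex it stood at 9.49 ± 3.53 CPM per kb, next to Satb1 at 11.5 ± 3.32, with overlapping libraries.

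Pvalb, the calcium buffer of fast-spiking basket and chandelier cells, was close to absent at this age. Its counts were 1, 0 and 8 in control rostral (T4, T8 and T70), 9, 6 and 2 in control caudal, 2, 6 and 6 in cKO rostral (T3, T6 and T80) and 2, 3 and 2 in cKO caudal libraries. A count of 0, as in T8, allows up to 3 counts, and no difference between groups was detectable at this depth. Pvalb was left out of every fit by the filter on low counts, and the other 8 genes were tested in every comparison. Of the transcription factors that precede it in the medial lineage, Lhx6, Sox6, Satb1 and Maf were present at 35.3 CPM or more in every library, as the plot of levels by library shows. Sox6, Satb1 and Maf are also carried by other cells.

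**Figure D1:**
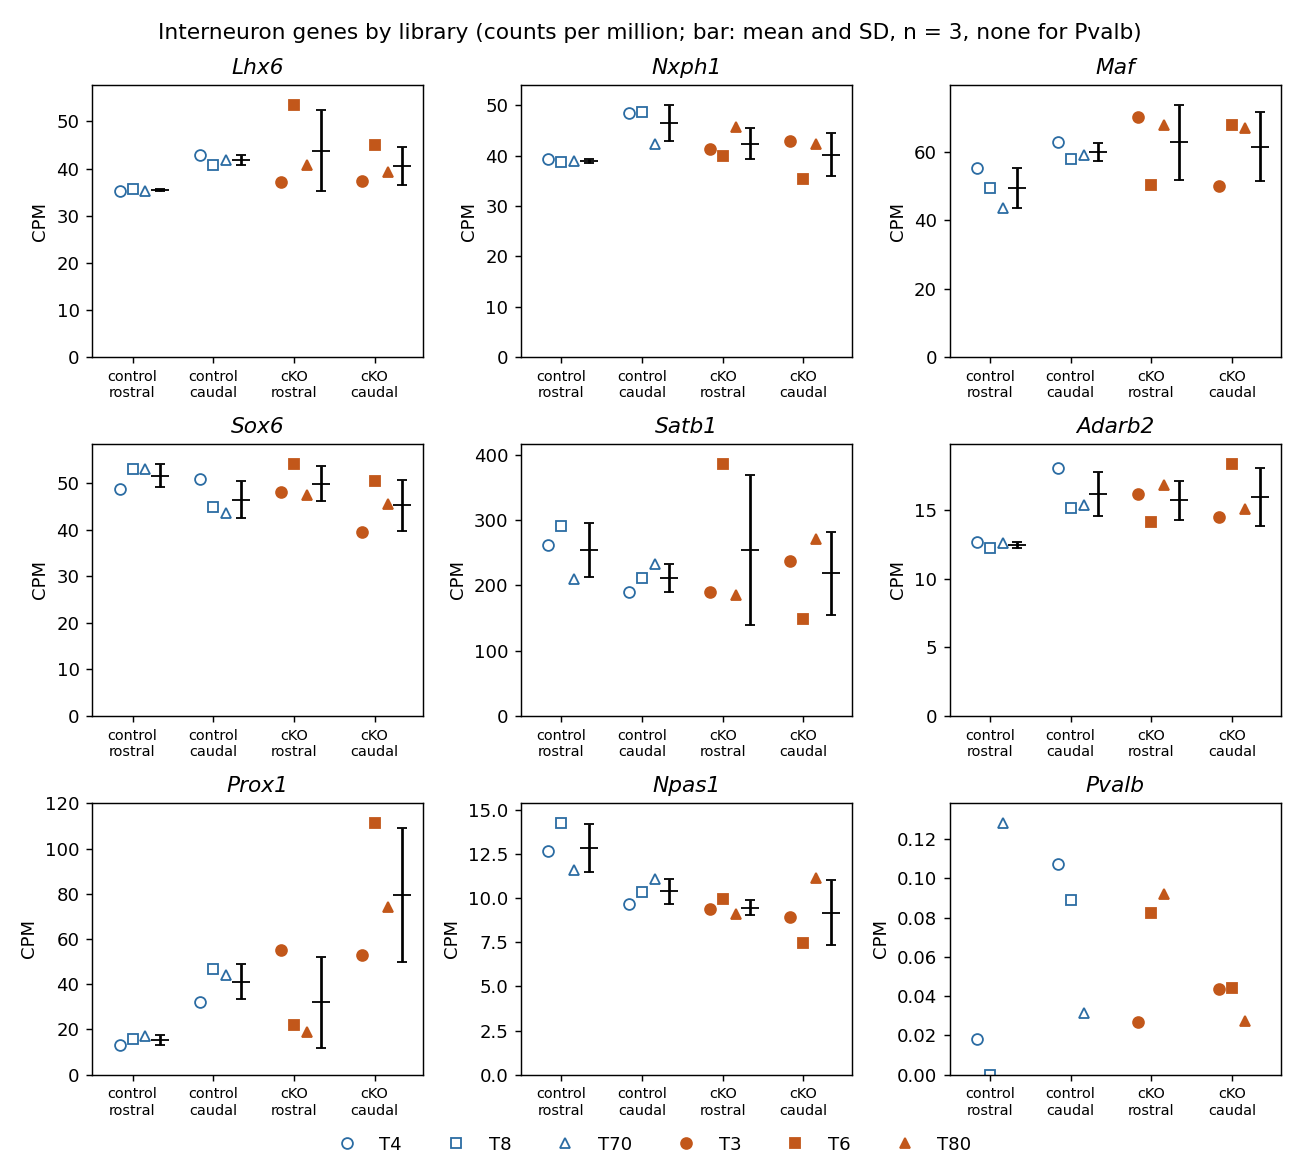
Level of each of the 9 interneuron genes (y axis, CPM, from 0) in the 4 groups (x axis); each point is 1 library, its shape gives the animal, open symbols are control and filled symbols cKO, and the bars give mean and SD of 3 libraries. Prox1 in cKO caudal libraries (53.0 to 111 CPM) lies above all control libraries (12.9 to 46.6 CPM), and Pvalb reaches at most 0.128 CPM.

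The comparison of caudal with rostral cortex in control animals shows in which piece these genes are higher in that genotype. Lhx6, the LIM homeodomain factor that directs migration and fate of medial interneurons, Nxph1, a secreted ligand of alpha-neurexins, Adarb2, an RNA-editing family member without known editing activity, and Prox1, a homeodomain factor needed by caudal interneurons and dentate granule neurons, all rose towards caudal cortex. The adjusted p was under 0.05 for these 4 of 8 tested genes, all higher caudally, where 12.2% of all 20461 genes tested passed and 6.30% passed as higher. The median log2 fold change of the 8 genes was 0.24, beside 0.00 over all genes tested.

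Prox1 was at 12.9, 15.8 and 17.3 CPM in control rostral libraries (T4, T8 and T70) and at 32.3, 46.6 and 44.3 CPM in control caudal libraries. The pieces did not overlap. By edgeR's quasi-likelihood F test the log2 fold change came to 1.41 with a standard error (SE) of 0.17, and p adjusted after Benjamini and Hochberg over all genes was 0.00315. Lhx6 was at 35.3, 35.6 and 35.3 CPM in rostral and at 43.0, 40.8 and 41.8 CPM in caudal libraries of the same animals. Its difference was small but wider than the spread within each piece, at 0.24 on the log2 scale (SE 0.05, edgeR adjusted p = 0.0122). Adarb2 went from 12.6, 12.2 and 12.6 CPM to 18.0, 15.1 and 15.4 CPM (0.37, SE 0.08, edgeR adjusted p = 0.0146), with every caudal library above every rostral one. Nxph1 went from 39.4, 38.7 and 39.0 CPM to 48.5, 48.6 and 42.4 CPM (0.25, SE 0.06, edgeR adjusted p = 0.0271), and again the pieces did not overlap.

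The start regions of 3 of these genes are shown because they moved together between the control pieces, while they differ in letters. They are the 250 bases before the most upstream RefSeq start, on the gene's own strand and on build GRCm38.p6, which is not the build of the counts (GRCm39), and hold no annotated exon. The capitals mark CANNTG, the E-box bound by basic helix-loop-helix factors, and TAATTA, a core shared by many homeodomain factors. Both motifs read the same on either strand, and no marked matches overlap.
Lhx6 (chr2:36105409-36105658, minus strand): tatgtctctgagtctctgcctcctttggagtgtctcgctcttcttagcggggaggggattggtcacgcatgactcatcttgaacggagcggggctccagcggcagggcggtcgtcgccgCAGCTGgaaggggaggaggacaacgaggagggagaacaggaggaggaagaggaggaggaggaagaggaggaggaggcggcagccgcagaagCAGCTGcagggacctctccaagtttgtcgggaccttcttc
Adarb2 (chr13:8202616-8202865, plus strand): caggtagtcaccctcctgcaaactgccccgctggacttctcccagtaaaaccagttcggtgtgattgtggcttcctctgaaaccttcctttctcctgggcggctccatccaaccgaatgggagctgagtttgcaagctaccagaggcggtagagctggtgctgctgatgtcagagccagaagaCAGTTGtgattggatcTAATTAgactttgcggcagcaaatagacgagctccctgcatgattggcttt
Prox1 (chr1:190170828-190171077, minus strand): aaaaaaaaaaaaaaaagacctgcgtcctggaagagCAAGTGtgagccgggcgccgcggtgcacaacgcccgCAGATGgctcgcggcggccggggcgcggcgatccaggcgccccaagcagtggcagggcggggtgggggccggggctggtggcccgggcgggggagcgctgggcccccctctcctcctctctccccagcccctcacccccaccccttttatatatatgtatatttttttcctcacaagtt
Lhx6 held 2 copies of CAGCTG, the nearer 40 to 35 bases before the start. Adarb2 held CAGTTG at 67 to 62 and TAATTA at 51 to 46 bases before the start. Prox1 held CAAGTG and CAGATG further away, at 215 to 210 and 179 to 174 bases. Of 32851 such windows in the table, 66.2% held CANNTG and 4.84% held TAATTA, and a match is a description of letters, not of binding. The table had start windows for 8 of the 9 genes, and 1 of their 21 windows held TAATTA.

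In the deposited coordinates (GRCm39) Lhx6 (ENSMUSG00000026890.20) spans 35971965 to 35995420 of chromosome 2, Adarb2 (ENSMUSG00000052551.17) 8252902 to 8818783 of chromosome 13 and Prox1 (ENSMUSG00000010175.14) 189850232 to 189902911 of chromosome 1. Exons of Prox1 share 133 bases with Prox1os, a transcript of the opposite strand that had 18 to 82 counts in a library where Prox1 had 707 or more. Since the strand setting of the counting is not given, reads of these shared bases cannot be assigned to 1 of the genes. Satb1 shares 156 bases with Gm36931 (386 to 1110 counts) on its own strand, beside at least 10093 counts of Satb1.

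The remaining genes missed the threshold between the control pieces. Maf, a leucine zipper factor of medial interneurons, was at 55.3, 49.4 and 43.7 CPM in rostral and 62.9, 58.0 and 58.9 CPM in caudal libraries. Npas1, a PAS-domain repressor that limits interneuron production, was at 12.6, 14.3 and 11.6 CPM and at 9.69, 10.3 and 11.1 CPM. The pieces overlapped for neither gene (edgeR log2 fold change 0.27, SE 0.08, adjusted p = 0.0549 for Maf and -0.31, SE 0.09, adjusted p = 0.0528 for Npas1). With the animal as a block in the fit both passed (edgeR adjusted p = 0.0126 and 0.0429), so that 6 of 8 genes did, beside 15.4% of all genes. Satb1, a chromatin organiser needed for maturation of somatostatin cells, was at -0.27 (SE 0.13, edgeR adjusted p = 0.260) and Sox6, an HMG-box factor that acts after Lhx6, at -0.16 (SE 0.07, edgeR adjusted p = 0.175). Counting Maf, Npas1 and the 4 called genes, 6 of 8 genes had pieces that did not overlap, where 31.3% of all genes tested did.

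No call in control cortex held in all 3 fits that left out 1 animal. Prox1 kept its call without T4 (edgeR adjusted p = 1.38e-04) and without T8 (0.0315). Leaving out T4 ended the calls of Lhx6 (edgeR adjusted p = 0.0885), Adarb2 (0.0783) and Nxph1 (0.148), while Maf (0.0449) and Sox6 (0.0356) then passed, with 8.21% of all genes. Leaving out T8 ended the same calls (edgeR adjusted p = 0.102, 0.0653 and 0.260), with 5.25% of all genes called. Without T70, with 7.19% of all genes called, the call was lost for Lhx6 (edgeR adjusted p = 0.0639), Adarb2 (0.0507) and Prox1 (0.0524), while Nxph1 (0.0206), Npas1 (0.0358) and Satb1 (0.0111) passed. Over these 3 fits the log2 fold changes ran from 0.21 to 0.26 for Lhx6, 0.29 to 0.41 for Adarb2, 0.21 to 0.31 for Nxph1 and 1.33 to 1.45 for Prox1. Those of the other genes ran from 0.20 to 0.32 for Maf, -0.43 to -0.23 for Npas1, -0.47 to -0.16 for Satb1 and -0.27 to -0.09 for Sox6. In 1 fit over all 12 libraries, whose spread includes the cKO libraries, none of the 8 passed and 0.361% of all genes did (edgeR adjusted p = 0.141 for Prox1 and 0.201 for Adarb2).

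**Figure D2:**
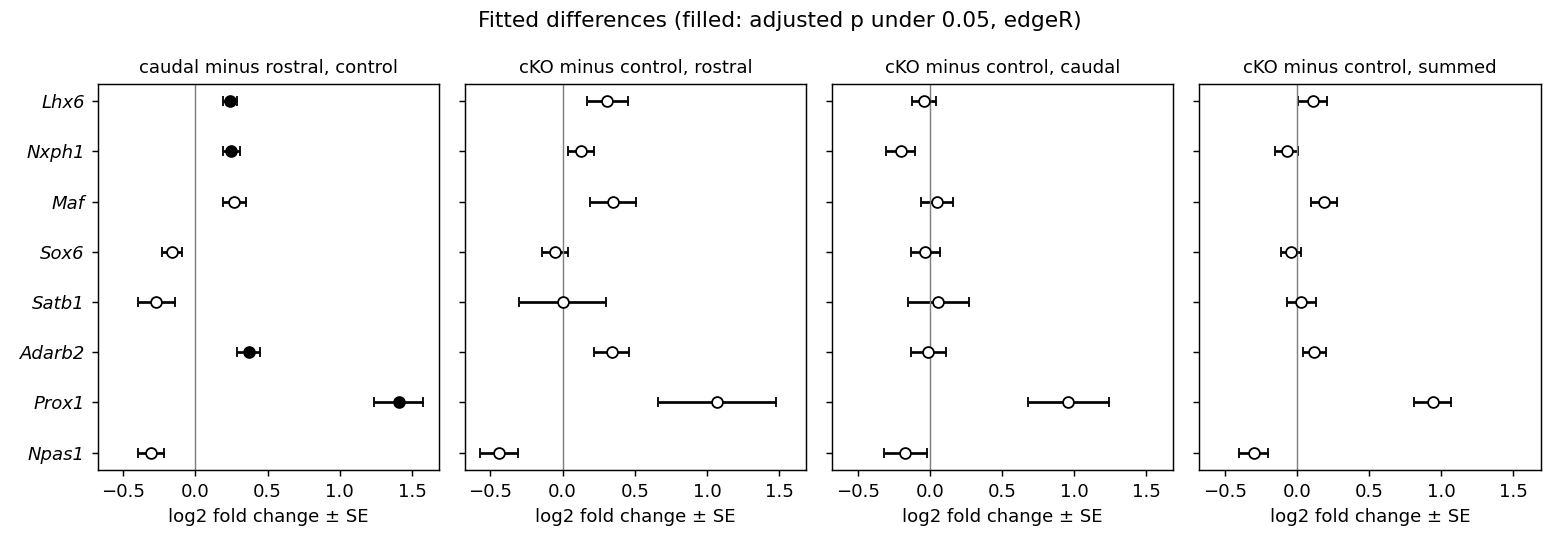
Log2 fold change with its standard error (x axis) of the 8 tested interneuron genes (y axis) in 4 comparisons, 1 panel each; filled points have an adjusted p under 0.05. Only the panel of control caudal against control rostral cortex has filled points, those of Lhx6, Nxph1, Adarb2 and Prox1, and Prox1 lies near 1 in all 3 panels of genotype.

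Other interneuron genes in lists of the medial lineage, the caudal lineage and ventral forebrain factors gave the same region a fuller description. Over all genes tested 6.30% rose and 12.2% changed, and the lists are set beside these shares. Of 16 tested medial lineage genes 6 rose caudally and 0 fell, among them Chodl, a mark of long-range somatostatin cells, from 1.44 ± 0.402 to 8.08 ± 1.20 CPM (SD, n = 3, log2 fold change 2.50, SE 0.20, edgeR adjusted p = 6.33e-05). The neuropeptide cortistatin, Cort, rose from 1.49 ± 0.208 to 4.43 ± 0.552 CPM (1.57, SE 0.15, edgeR adjusted p = 1.27e-04). The potassium channel gene Kcnc2 rose from 13.6 ± 0.148 to 18.4 ± 1.15 CPM (0.43, SE 0.07, edgeR adjusted p = 0.00257). Of 15 caudal lineage genes 5 rose and 1 fell, and 8 of the 15 had a log2 fold change above 0. The 3 named here had the smallest p, and all of them rose. Calb2, which encodes calretinin, rose from 9.42 ± 1.89 to 33.4 ± 0.926 CPM (1.82, SE 0.12, edgeR adjusted p = 5.99e-05). The receptor Kit rose from 64.3 ± 3.77 to 112 ± 5.79 CPM (0.80, SE 0.06, edgeR adjusted p = 3.57e-05). Ndnf, a secreted factor of neurogliaform and Cajal-Retzius cells, rose from 34.9 ± 2.85 to 58.2 ± 1.97 CPM (0.73, SE 0.06, edgeR adjusted p = 6.78e-05).

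Of 11 ventral forebrain and migration genes 2 rose and 2 fell. The homeobox genes Dlx1 (42.0 ± 3.91 to 31.6 ± 0.548 CPM, SD, n = 3, log2 fold change -0.42, SE 0.07, edgeR adjusted p = 0.00272) and Dlx2 (12.8 ± 1.31 to 8.68 ± 0.583 CPM, -0.57, SE 0.09, edgeR adjusted p = 0.00338) fell, while the chemokine receptor Cxcr4 rose (9.20 ± 1.14 to 14.3 ± 1.93 CPM, 0.62, SE 0.12, edgeR adjusted p = 0.00655). The median log2 fold change was 0.49 for the medial, 0.05 for the caudal and -0.34 for the ventral forebrain list, beside 0.00 over all genes. Markers of dentate granule cells moved with the caudal piece too: 4 of 8 rose and 1 fell, and their summed level was 55.3 to 68.3 CPM in control rostral and 133 to 142 CPM in control caudal libraries. Their part in the regional difference of Prox1 was not tested.

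In cKO animals no gene separated the caudal from the rostral piece at the threshold. None of the 8 genes passed, as 0% of the 20944 genes tested did in edgeR, with 1 of the 8 and 1.66% of all genes at an unadjusted p under 0.05. DESeq2 called 2 genes (0.00510%), neither of them a gene described here. The log2 difference of caudal against rostral level within an animal was 0.29, 0.20 and 0.24 for Lhx6 in the controls T4, T8 and T70, and 0.01, -0.25 and -0.06 in the cKO animals T3, T6 and T80. Nxph1 gave 0.30, 0.33 and 0.12 in the controls and 0.05, -0.17 and -0.11 in cKO. For both genes every control animal lay above every cKO animal, which makes 2 of 8 genes without overlap, beside 10.2% of all genes.

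**Figure D3:**
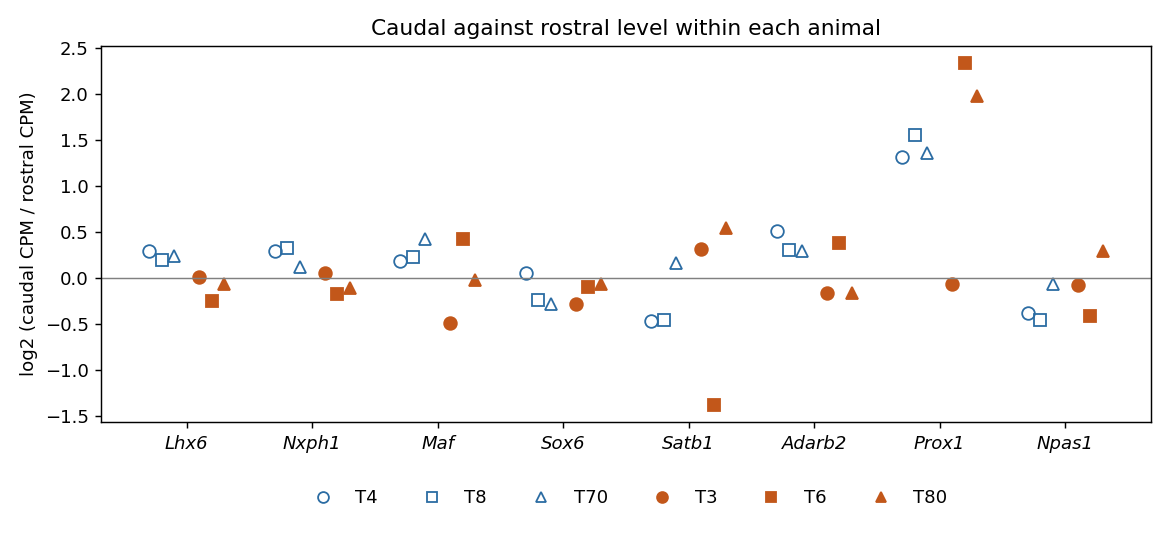
Log2 ratio of caudal to rostral CPM within each animal (y axis) for the 8 tested interneuron genes (x axis); open symbols are the 3 control and filled symbols the 3 cKO animals. Control animals lie between 0.20 and 0.29 for Lhx6, above the 3 cKO animals, while cKO animals spread from -0.06 to 2.34 for Prox1.

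Adarb2 was higher caudally in all controls (0.51, 0.31 and 0.29) and, among cKO animals, in T6 (0.38) but not in T3 or T80 (both -0.16). Prox1 was higher caudally by 1.32, 1.56 and 1.36 in the controls and by 2.34 and 1.98 in T6 and T80, but T3 was at -0.06. Satb1 gave -1.38 in T6, 0.32 in T3 and 0.54 in T80. The test of the difference itself, the interaction of genotype and region over 12 libraries, called none of the 8 genes and 0% of all genes in edgeR. It gave -0.32 for Nxph1 (SE 0.14, unadjusted p = 0.0383, the 1 of the 8 genes under 0.05, where 3.55% of all genes were), -0.35 for Adarb2 (SE 0.16) and -0.34 for Lhx6 (SE 0.17). None of the 8 was under the threshold after adjustment. DESeq2 called 14 genes (0.0596%) in the interaction and none of the 8. Without T3 the interaction of Nxph1 was -0.39 and of Prox1 0.77 in place of -0.10, and without T6 475 genes (2.17%) passed in edgeR but none of the 8, with Adarb2 at -0.52 (adjusted p = 0.0556).

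Whether these genes differ with loss of Egfr in the rostral piece was asked by setting its cKO against its control libraries. The libraries of the genotypes did not overlap for Adarb2, Lhx6, Nxph1 and Prox1, which were higher in cKO, and for Npas1, which was lower. These are 4 higher and 1 lower of 8 genes, where 19.7% of all genes tested had groups that did not overlap, 9.05% higher and 10.7% lower. The same genes also did not overlap between the control pieces, each with the same direction from rostral to caudal. Log2 fold changes there were 0.37 for Adarb2, 0.24 for Lhx6, 0.25 for Nxph1, 1.41 for Prox1 and -0.31 for Npas1. Scored by region, cKO pieces labelled rostral lay at 0.853 in T3, 0.639 in T80 and -0.0801 in T6. How much of these genotype differences came from tissue position was not tested. None of the 8 genes passed the edgeR test, as 0% of 20599 genes did, with 3 of the 8 and 9.49% of all genes at an unadjusted p under 0.05. Egfr itself missed the threshold here (log2 fold change -2.14, SE 0.25, edgeR adjusted p = 0.186), although its libraries did not overlap. On the summed counts Egfr passed (-2.10, SE 0.11, edgeR adjusted p = 0.00190). A miss in a single piece is therefore not evidence of an unchanged level.

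Npas1 had the smallest p of the 8, at 9.36, 9.93 and 9.07 CPM in T3, T6 and T80 beside 12.6, 14.3 and 11.6 CPM in the controls. Its log2 fold change was -0.44 (SE 0.13, edgeR adjusted p = 0.409). Adarb2 was at 16.2, 14.1 and 16.8 CPM in cKO and 12.2 to 12.6 CPM in control (0.34, SE 0.12, edgeR adjusted p = 0.457). Lhx6 was at 37.1, 53.5 and 40.7 CPM in cKO and 35.3 to 35.6 CPM in control, so that T6 was the highest library (0.31, SE 0.14, edgeR adjusted p = 0.529), and the log2 fold change was 0.15 without T6 and 0.41 without T3. Prox1 was at 55.2, 22.0 and 18.8 CPM in the cKO libraries of T3, T6 and T80, while control libraries held 12.9 to 17.3 CPM. The high value of T3 gave it a wide error (1.07, SE 0.41, edgeR adjusted p = 0.502), and without T3 the log2 fold change was 0.41.

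Maf was at 70.2, 50.3 and 67.9 CPM in cKO and 43.7 to 55.3 CPM in control (0.35, SE 0.16, edgeR adjusted p = 0.537). Nxph1 was at 0.13 (SE 0.09) and Sox6 at -0.05 (SE 0.09). Satb1 was at 386 CPM in T6 but at 189 and 185 CPM in T3 and T80, around a control range of 209 to 291 CPM. In the same T6 library the summed level of 8 markers of glutamatergic neurons was 2490 CPM, where the other 11 libraries held 1290 to 1620 CPM. Satb1 had a fold of 0.998 with all libraries, and without T6 its log2 fold change was -0.43 (edgeR adjusted p = 0.117). Adarb2 (0.41, adjusted p = 0.0295) and Maf (0.49, adjusted p = 0.0324) passed edgeR without T6, where 5.01% of all genes did. The cKO libraries left then, T3 and T80, are those with region scores of 0.853 and 0.639, and both genes were higher in caudal than in rostral libraries of all 3 control animals. The part of the position of the tissue in these calls was not tested.

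Microglia carry Maf as well. The summed level of 8 microglial markers was 262, 97.4 and 211 CPM in the cKO rostral libraries of T3, T6 and T80, in the order of Maf there. The sums of the control caudal libraries of T4, T8 and T70, at 180, 141 and 164 CPM, were in the order of Maf as well. In control rostral libraries T70 had the lowest Maf and the highest marker sum (168 CPM, beside 157 and 124 CPM in T4 and T8), and among cKO caudal libraries T3 had the lowest Maf and the highest marker sum (193 CPM, beside 175 and 173 CPM in T6 and T80). All of the 8 markers were detected in every library. Oligodendrocyte precursors, which carry Sox6, had a summed marker level of 349 to 481 CPM in cKO rostral and 558 to 611 CPM in control rostral libraries. No precursor marker passed in rostral cortex, while 1 of 8 fell in caudal cortex and 2 of 8 on the summed counts. These were Olig1 (-0.67 in caudal, SE 0.07, edgeR adjusted p = 0.0283, and -0.90 on the sums, SE 0.07, edgeR adjusted p = 0.0115) and Olig2 (-0.59 on the sums, SE 0.07, edgeR adjusted p = 0.0381), both factors of the oligodendrocyte lineage. Markers of pallidum and striatum, next to the dissected tissue and a place of Npas1, lay at 81.4 to 113 CPM in cKO and 125 to 295 CPM in control rostral libraries, with 0 of 8 called. The part of these cells in the values of Maf, Sox6 and Npas1 was not tested.

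In caudal cortex the same comparison gave log2 fold changes from -0.20 to 0.06 for 7 of the 8 genes. The genotypes did not overlap for 1 of 8 genes, Prox1, where 23.0% of all genes had groups that did not overlap, and 0 of 8 passed where 0.0821% of 20705 genes did. Egfr missed the threshold here as well (log2 fold change -2.05, SE 0.31, edgeR adjusted p = 0.102), so a miss is again not evidence of an unchanged level. Log2 fold changes were -0.01 for Adarb2 (SE 0.12), -0.04 for Lhx6 (SE 0.08), 0.05 for Maf (SE 0.11), -0.17 for Npas1 (SE 0.15), -0.20 for Nxph1 (SE 0.10), 0.06 for Satb1 (SE 0.21) and -0.03 for Sox6 (SE 0.10). Without T6 these were -0.13 for Adarb2, -0.12 for Lhx6, -0.03 for Maf, -0.04 for Npas1, -0.12 for Nxph1, 0.27 for Satb1 and -0.12 for Sox6. Without T3 they were 0.05 for Adarb2, 0.01 for Lhx6, 0.17 for Maf, -0.16 for Npas1, -0.26 for Nxph1, -0.01 for Satb1 and 0.05 for Sox6, and none of the 7 passed in either fit. With all animals the median of the 8 genes was -0.02, and the median size was 0.05 beside 0.15 over all genes. Lhx6 was at 37.4, 45.1 and 39.2 CPM in cKO (T3, T6 and T80) and 40.8 to 43.0 CPM in control, and Nxph1 at 43.0, 35.3 and 42.3 CPM beside 42.4 to 48.6 CPM.

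Prox1 was at 53.0, 111 and 74.3 CPM in the cKO caudal libraries of T3, T6 and T80 and at 32.3 to 46.6 CPM in control. Each cKO library lay above each control library. The log2 fold change was 0.96 (SE 0.28) and missed the threshold in edgeR (adjusted p = 0.257), while DESeq2 called it (adjusted p = 0.00408) with 2.43% of all genes. At an unadjusted p under 0.05 it was the 1 of the 8 genes, beside 14.5% of all genes. With single animals left out it ran from 0.64, without T6, to 1.18, without T3, and passed in none of the 6 edgeR fits.

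On the sum of both pieces of each animal Prox1 again had the smallest p of the 8 genes. It was at 24.8, 31.5 and 31.0 CPM in the control animals T4, T8 and T70 and at 54.8, 63.6 and 48.2 CPM in the cKO animals T3, T6 and T80. The means were 29.1 ± 3.78 and 55.5 ± 7.74 CPM (SD, n = 3), a fold of 1.92 with no overlap. The log2 fold change was 0.94 (SE 0.13) with an adjusted p of 0.0514 in edgeR, just outside the threshold, and an unadjusted p of 1.14e-04. It was called by DESeq2 (adjusted p = 1.67e-07), with 3.26% of all genes. In edgeR it passed without T6 (0.83, adjusted p = 0.0325), with 2.92% of all genes, and without a filter on low counts (adjusted p = 5.63e-04), with 0.754%. With sex as a covariate it did not pass (0.91, edgeR adjusted p = 0.167), and 0.00436% of all genes did. With single animals left out the log2 fold change ran from 0.83 to 1.03. With both pieces of each animal thinned to equal totals, a setting chosen after seeing the data, Prox1 was at 23.1, 31.9 and 31.3 CPM in control and 54.6, 69.7 and 47.0 CPM in cKO (edgeR adjusted p = 0.0660), and 0.330% of all genes passed. In the fit as designed 0 of the 8 genes and 0.179% of all 22924 genes passed, with 2 of the 8 and 15.4% of all genes at an unadjusted p under 0.05.

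**Figure D4:**
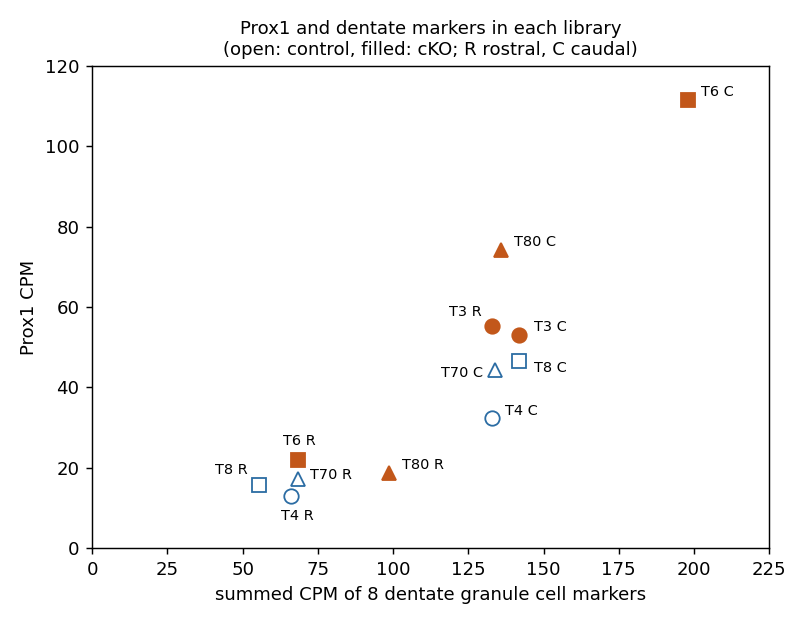
Prox1 level (y axis, CPM) against the summed level of 8 dentate granule cell markers (x axis, CPM) in the 12 libraries, open for control and filled for cKO, labelled by animal and piece (R rostral, C caudal). Caudal libraries hold more of both than rostral ones, the T3 library labelled rostral lies among the caudal libraries, and cKO caudal libraries of T3 and T80 lie above controls with like marker levels.

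Dentate granule neurons are the other main place of Prox1 in this tissue, so their markers are set beside it. The summed level of the 8 markers was 107, 99.8 and 101 CPM in the control animals and 138, 127 and 119 CPM in the cKO animals. Per 100 CPM of these markers Prox1 stood at 23.1, 31.6 and 30.6 CPM in controls and at 39.8, 49.9 and 40.6 CPM in cKO, without overlap. The markers in the sum did not all move together between the control pieces. From rostral to caudal C1ql2 rose (1.92, SE 0.27), Dock10 was at 0.06 (SE 0.13) and Tdo2 fell (-1.09, SE 0.18). The ratio therefore does not scale Prox1 to granule cells alone. In caudal libraries alone the ratio stood at 24.2 to 33.2 in control and 37.2 to 56.4 in cKO. The cKO rostral libraries of T3, T6 and T80 had 41.6, 32.2 and 19.0, and control rostral ones 19.5 to 28.6. None of the 8 markers passed on the summed counts. Neurod1, a factor of young granule and other neurons, was at 0.63 (SE 0.11, edgeR adjusted p = 0.0951), C1ql2, a synaptic protein of granule cells, at 0.71 (SE 0.25, edgeR adjusted p = 0.277), Igfbpl1 at 0.67 (SE 0.15, edgeR adjusted p = 0.143) and Dsp at 0.30 (SE 0.16). Plk5 was at 0.19 (SE 0.24), Dock10 at -0.06 (SE 0.12), Calb1 at -0.09 (SE 0.19) and Tdo2 at -0.15 (SE 0.15). Animals of the genotypes did not overlap for Neurod1, C1ql2 and Igfbpl1, 3 of the 8 markers and all higher in cKO. Over all genes tested 26.0% did not overlap, and 11.8% were higher without overlap. The part of granule neurons in the Prox1 difference was not tested.

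Npas1 was the other gene whose animals did not overlap on the summed counts, at 10.9, 12.3 and 11.4 CPM in control and 9.26, 8.52 and 10.2 CPM in cKO (-0.30, SE 0.10, edgeR adjusted p = 0.258). These 2 of 8 genes stand beside 26.0% of all genes without overlap. Lhx6 was at 40.1, 38.4 and 38.6 CPM in control and 37.5, 48.1 and 40.0 CPM in cKO (0.11, SE 0.10, edgeR adjusted p = 0.586), and -0.01 without T6. Adarb2 was at 14.6 ± 1.22 CPM in control and 15.8 ± 0.125 CPM in cKO (SD, n = 3, 0.12, SE 0.08), and the groups overlapped. Maf was at 0.19 (SE 0.09), Nxph1 at -0.07 (SE 0.08), Sox6 at -0.04 (SE 0.07) and Satb1 at 0.03 (SE 0.10). The median of the 8 genes was 0.07, beside 0.02 over all genes.

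Relative to the summed transcripts of Gad1, Gad2 and Slc32a1, which all GABA neurons use to make the transmitter and load it into vesicles, Lhx6 and Adarb2 stood at overlapping levels in the genotypes. The parts of that sum did not move together on the summed counts. Gad1 was at 0.16 (SE 0.13), Gad2 at 0.22 (SE 0.28) and Slc32a1 at -0.36 (SE 0.18), the last without overlap. Any GABA neurons of pallidum and striatum in the pieces add to it too, and their part was not tested. Lhx6 CPM was 18.7% to 28.5% of that sum in control and 22.2% to 25.7% in cKO animals, a log2 difference of -0.01. Adarb2 CPM was 7.44% to 10.2% in control and 7.91% to 10.2% in cKO, a log2 difference of 0.01. In rostral libraries the log2 differences were -0.09 for Lhx6 and -0.05 for Adarb2, and in caudal libraries they were 0.00 in size for Lhx6 and 0.02 for Adarb2. The 2-sided exact permutation test, whose smallest possible p with 3 against 3 is 0.1, gave p of 0.900 or more in all 6 comparisons, and 1 after adjustment over the 6.

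Among the other interneuron genes 1 passed between genotypes. Ndnf rose on the summed counts from 47.7 ± 0.150 to 69.0 ± 5.39 CPM (SD, n = 3, log2 fold change 0.54, SE 0.07, edgeR adjusted p = 0.0436). It was 1 of 15 caudal lineage genes, where 0.179% of all genes passed. Refits of Ndnf are not given, and with sex as covariate 1 gene of the whole table passed. Ndnf also rose from rostral to caudal between the control pieces (0.73, SE 0.06). The part of tissue position in its genotype difference was not tested. Ndnf is also made by Cajal-Retzius neurons. None of 15 tested medial lineage, 5 GABA or 11 ventral forebrain and migration genes passed, in this or in either single piece. The medians on the summed counts were 0.19 for the medial lineage, 0.24 for the ventral forebrain and migration list and 0.05 for the caudal lineage, beside 0.02 over all genes. Crhbp, the binding protein of corticotropin-releasing hormone found in somatostatin cells, was at 3.74 ± 0.651 CPM in control and 7.67 ± 2.23 CPM in cKO (1.05, SE 0.22, edgeR adjusted p = 0.137). Dlx1 was at 36.5 ± 2.18 and 49.5 ± 3.92 CPM (0.45, SE 0.08, edgeR adjusted p = 0.0978). Abat, the enzyme that breaks down GABA and is also made by astrocytes, was at 145 ± 20.9 and 98.4 ± 14.6 CPM (-0.55, SE 0.13, edgeR adjusted p = 0.176). In caudal cortex Chodl was at 8.08 ± 1.20 CPM in control and 4.06 ± 0.841 CPM in cKO (-0.98, SE 0.18, edgeR adjusted p = 0.105), while the log2 fold change was 1.63 in rostral cortex (SE 0.63, edgeR adjusted p = 0.504) and -0.23 on the sums (SE 0.27). In rostral cortex Cort was at 1.49 ± 0.208 and 3.81 ± 1.04 CPM (1.36, SE 0.26, edgeR adjusted p = 0.310), with 0.26 in caudal cortex (SE 0.31) and 0.54 on the sums (SE 0.25).

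Over the 12 libraries, which share animals, region and depth, Adarb2 moved most with Maf (Pearson r = 0.801 on log2 CPM) and against Npas1 (r = -0.821), while Lhx6 and Nxph1 had r = 0.0467 and Lhx6 and Sox6 r = 0.220. Among 11400 genes with a mean of 5 CPM or more, the patterns most like Lhx6 were those of Bmp3 (r = 0.963), Psme1 (0.951) and Slitrk3 (0.950), and those most like Adarb2 were Zfp618 (r = 0.974), Efhd2 (0.958) and Elk1 (0.956). These correlations describe 12 libraries that are not independent.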

How the data were processed

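Polyadenylated RNA of 12 libraries was read as paired ends of 50 bases. Per the submitters' processing notes, STAR 2.7.8a and featureCounts 2.0.3 were used on GRCm39. Annotation release, strand setting and treatment of multi-mapped reads: not given in the sources used here. Deposited by the authors are expected counts per gene, of which 9.69% to 14.3% in a library are fractional. These were rounded to whole numbers. Groups came from the labels, and same-numbered pieces came from the same animal (correlation of their deviations from group means over 21599 genes: 0.262, 0.238 and 0.328 in T4, T8 and T70, 0.0361, -0.00359 and 0.454 in T3, T6 and T80). That the animals are separate is taken from their numbers.

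Each comparison was fitted on the libraries of its own groups with edgeR 4.0.16 in R 4.3.3: filterByExpr, TMM scaling, robust quasi-likelihood F test, Benjamini-Hochberg adjustment over all genes, threshold 0.05. Standard errors are the size of the log2 fold change over the root of F. The region fits had no animal term. Alternatives were DESeq2 1.42.0, RLE scaling, no filter, a filter of 1 CPM in 3 libraries, sex as covariate (2 females and 1 male in control, 1 and 2 in cKO, read from the counts), 1 fit over 12 libraries, the animal as block each animal left out and, added after seeing the data, sums of pieces thinned to equal totals. CPM are scaled over all 12 libraries, or over the 6 sums. The caudal and summed genotype fits and the control region fit were also run on simulated counts, whose outcome is not given. Those counts had the same spread for all genes and no outlying library, and the other fits were not simulated.

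The 9 genes and the 12 lists (110 genes) were chosen with earlier results of these data known. Named beside the 9 genes are list members with the smallest p, up to 3 per interneuron list and comparison, the 8 dentate markers set beside Prox1, the precursor markers Olig1 and Olig2 (chosen after their values were seen), and the 3 genes most like Lhx6 and Adarb2. The rule also names a gene whose result is not reported here.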

Additional observations from a re-analysis of the deposited data

How the results depend on the processing

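Of 520 refits of single genes, 454 kept direction and side of the threshold, 17 gained and 13 lost a call, and 36 changed sign, 31 of these with an animal left out. Sign changes outside those were Satb1 in rostral cortex between genotypes (0.00 with RLE scaling and 0.01 with the 1 CPM filter), Maf in caudal cortex with sex as covariate (-0.02), Satb1 on sums of pieces thinned to equal totals (-0.00) and Prox1 in the interaction with the replicate block (0.04). The cause was not tested.

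Genes called over the whole table were 45, 326 and 320 without a filter in rostral, caudal and summed genotype comparisons, 371, 468 and 740 with DESeq2, and 101 and 1 in rostral and caudal cortex in 1 fit over 12 libraries. With sex as covariate 2 passed in caudal and 1 on the summed counts, where 17 and 41 had. Sums of pieces thinned to equal totals gave 75. The interaction had 2 without a filter and 14 with DESeq2, region in cKO had 2 with DESeq2, and region in control had 78 in 1 fit over 12 libraries, with 0 of the 8 interneuron genes in place of 4. DESeq2 called 1 of the 8 in caudal and 1 on the summed counts, as did the summed counts without a filter, in each case Prox1. The pairing by animal as a block left 0 genes called in the interaction and in the cKO regions, gave 3144 in place of 2492 in the control regions, and beside Maf and Npas1 changed no other call of the 8.

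With each animal left out, calls ran from 0 to 1058 in rostral (most without T6), 0 to 162 in caudal, 1 to 685 on the summed counts, 1079 to 1690 for region in control, 0 to 475 in the interaction and stayed at 0 for region in cKO. The 8 genes had 0 to 2 calls in rostral, 0 to 1 on the summed counts and 1 to 3 for region in control.
The log2 difference of the share of GABA transcripts ran, with an animal left out, from -0.28 to 0.11 for Lhx6 in the rostral genotype comparison, -0.17 to 0.10 for Lhx6 in the caudal genotype comparison, -0.19 to 0.11 for Lhx6 in the summed genotype comparison, -0.22 to 0.13 for Adarb2 in the rostral genotype comparison, -0.08 to 0.10 for Adarb2 in the caudal genotype comparison and -0.12 to 0.11 for Adarb2 in the summed genotype comparison, and with Gad2 alone it was -0.21, -0.09 and -0.13 for Lhx6 and -0.17, -0.06 and -0.11 for Adarb2 in rostral, caudal and summed comparisons.
Sign changes with an animal left out concerned values that missed the threshold: in the rostral genotype comparison Satb1 -0.43 to 0.17, in the caudal genotype comparison Adarb2 -0.13 to 0.07, Satb1 -0.12 to 0.27, Sox6 -0.12 to 0.05, Lhx6 -0.12 to 0.01, Maf -0.03 to 0.17, in the summed genotype comparison Satb1 -0.07 to 0.11, Lhx6 -0.01 to 0.19, Nxph1 -0.12 to 0.00, in the cKO region comparison Maf -0.23 to 0.19, Adarb2 -0.15 to 0.12, Npas1 -0.23 to 0.13, Satb1 -0.57 to 0.44, in the interaction comparison Satb1 -0.30 to 0.72, Sox6 -0.04 to 0.13, Prox1 -0.62 to 0.77. The depth of Pvalb, at most 9 counts in a library, allows no comparison.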
